A study of Mus musculus with 18 samples.

Results

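The hippocampus of 5xFAD mice that received extracellular vesicles from human breast milk (HM-EVs) was compared with the hippocampus of 5xFAD mice that received PBS, across all genes of a bulk RNA-seq table. The libraries were chosen by their labels: 3 of vesicle-treated mice and 3 of PBS-treated mice, 6 of the 18 libraries of the series. Hippocampus of wildtype C57BL/6J mice given PBS (3 libraries) is set beside them as the level without the transgenes. The same 2 5xFAD groups in prefrontal cortex (3 libraries each) are used for 1 comparison of tissues. All mice were labelled male and C57BL/6J. Vesicles or PBS went into a vein every 3 days for 10 times, starting at 5 months of age and ending at 6 months, and brains were taken after behavioural tests and perfusion with cold PBS. The 5xFAD mouse is a transgenic model that expresses mutated human transgenes, among them APP, in neurons under Thy1 promoter elements, forms amyloid plaques early and shows strong gliosis. Both 5xFAD groups carry these transgenes, and no vesicle-treated wildtype mice were analysed here. The amount of vesicles per injection is not given in the sources used here.

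Extracellular vesicles are membrane-bound particles that carry protein, lipid and RNA between cells. Microglia around amyloid plaques take on a disease-associated state marked by genes such as Trem2, Cst7 and Apoe, and some of them switch on genes of the type I interferon response, which act through factors such as STAT2 and IRF9. The title of the series names CD36, a scavenger receptor that takes up fatty acids and amyloid, as a protein delivered by the vesicles. The hippocampus lies beside a ventricle with choroid plexus, the epithelium behind cerebrospinal fluid, and dissection can take some of it and of the meninges along.

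Levels are FPKM, reads scaled to gene length and to library size, as deposited. The 6 libraries held between 26437860 (HM-EVs replicate 3) and 36901748 (HM-EVs replicate 2) reads in listed genes. Dentate gyrus markers were in place, with all 4 of 4 higher in every one of the 6 libraries than in any 5xFAD prefrontal cortex library, as were 3 of 4 CA2 and CA3 markers and 1 of 3 CA1 markers. The neocortical markers did so in 0 of 4 cases. The labels do not state whether replicates of 1 group came from different mice. If they did not, the p-values reflect technical spread alone.

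The 6 libraries differed most in choroid plexus transcripts. Ttr, the thyroid hormone carrier that choroid plexus epithelium makes in bulk, stood at 5532, 2207 and 178 FPKM in HM-EVs libraries, against 2532, 8684 and 2697 FPKM in PBS libraries and 29.7, 76.5 and 159 FPKM in wildtype libraries. HM-EVs replicate 3 lay far below the other 5xFAD libraries and next to the wildtype ones, while the other 2 HM-EVs libraries lay within or just below the PBS range. The difference of the mean Ttr levels, HM-EVs minus PBS, was -1999 FPKM (exact permutation test, two-sided p = 0.5, where 3 against 3 libraries cannot go below 0.1), and it was 24.1 FPKM without PBS replicate 2. The 18 choroid plexus markers summed to 6685, 2691 and 274 FPKM in HM-EVs libraries, against 3113, 10132 and 3295 FPKM in PBS libraries and 98.2, 168 and 251 FPKM in wildtype libraries. HM-EVs replicate 3 was the lowest of the 6 libraries for 18 of 18 markers. Among them, Folr1, a folate receptor, had 33.7, 13.3 and 1.43 FPKM in HM-EVs libraries, against 14.0, 50.4 and 15.2 FPKM in PBS libraries. The potassium channel subunit Kcne2 had 20.4, 6.38 and 0.406 FPKM in HM-EVs libraries, against 9.67, 24.2 and 9.38 FPKM in PBS libraries. Both give the libraries nearly the order that Ttr gives. The other 15 markers were Kl, Clic6, Kcnj13, Aqp1, Otx2, F5, Slc4a5, Slc13a4, Tmem72, Sostdc1, Steap1, Prlr, Cldn1, Enpp2 and Calml4. The 18 log2 fold changes lay between -1.59 and -0.43. Their median was -1.03 with all libraries and -0.08 without HM-EVs replicate 3, and for 0 of 18 did the 2 groups separate. In tissue homogenates, fewer cells of a type and less RNA per cell cannot be told apart.

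**Figure D1:**
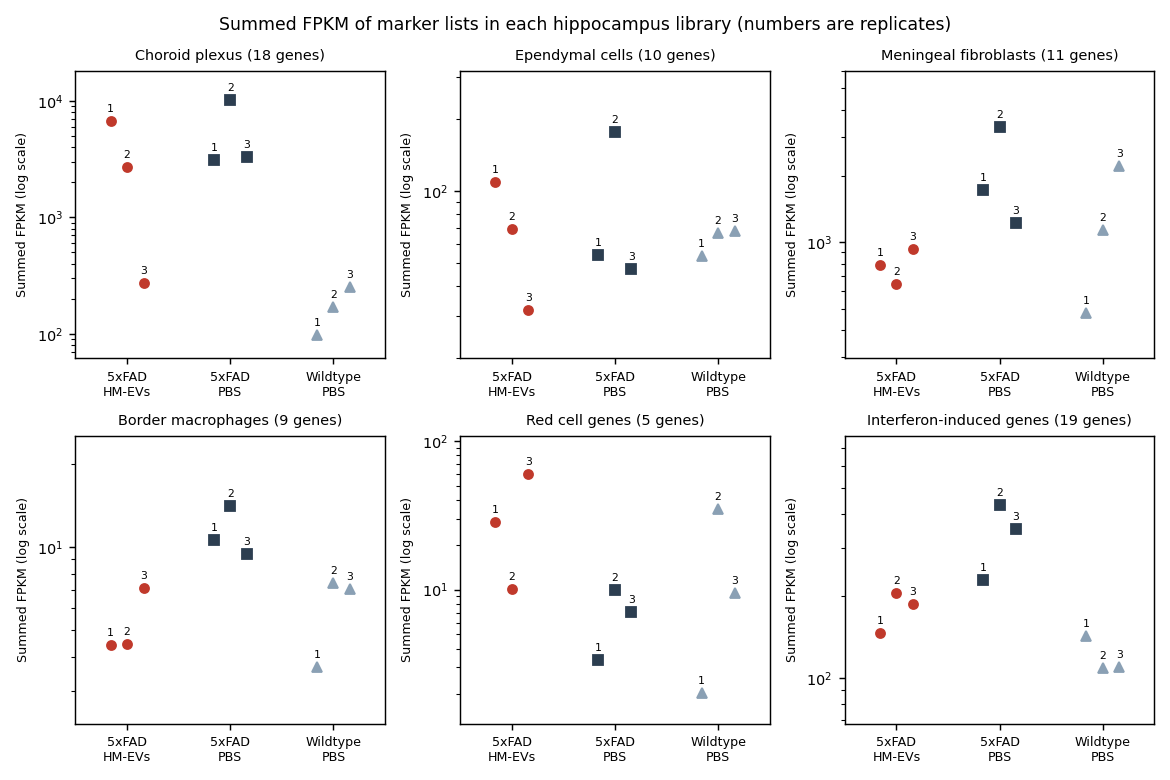
Summed FPKM (log scale) of 6 marker lists in each hippocampus library, with 5xFAD HM-EVs on the left, 5xFAD PBS in the middle and wildtype PBS on the right; numbers are replicates. HM-EVs replicate 3 has 274 FPKM of choroid plexus markers, near the wildtype libraries, and the 3 HM-EVs libraries lie below the 3 PBS libraries for meningeal, border macrophage and interferon lists.

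No gene passed the test. With limma and Benjamini-Hochberg adjustment over 13305 genes, 0 genes (0%) had an adjusted p under 0.05, and the smallest adjusted p was 0.87. At an unadjusted p under 0.05 there were 519 genes (3.9%), of which 444 were lower and 75 higher with vesicles. The split depended on the scaling, with 313 lower and 177 higher after quantile normalization and 320 lower and 122 higher after centring each library on its median. limma-voom on reads recovered from the FPKM also called 0 genes, with 475 at an unadjusted p under 0.05 (360 lower and 115 higher). The median absolute log2 fold change over all genes was 0.10 and the median standard error 0.13. For 12715 genes (95.6%) the 95% interval lay wholly between -1 and 1 on the scale of log2(FPKM + 0.5), so a change of that size on this scale was outside the interval. An estimate below -1 or above 1 was seen for 67 genes (0.504%). The added 0.5 shrinks changes of low genes, so for those such an interval need not exclude a 2-fold change of FPKM itself. Groups without overlap, in which every HM-EVs library lay on 1 side of every PBS library, were seen for 693 genes lower with vesicles (5.21%) and 306 higher (2.3%). Over all genes the median log2 fold change was -0.02, and 44.1% of values were above 0.

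Because nothing was called, the genes named first are those with the smallest unadjusted p among genes without overlap. Their values describe them, since the p itself chose them, and each has an adjusted p of 0.87 (limma). Several of the 10 lower ones are known from myeloid cells or the interferon response. Ifitm3, a membrane protein that blocks virus entry, had 32.1, 41.9 and 42.8 FPKM in HM-EVs libraries, against 55.1, 120.0 and 90.1 FPKM in PBS libraries and 32.9, 29.4 and 33.6 FPKM in wildtype libraries. Tgtp1, an interferon-induced GTPase, had 1.31, 0.839 and 0.848 FPKM in HM-EVs libraries, against 2.60, 7.59 and 3.12 FPKM in PBS libraries and 0.546, 0.198 and 0.434 FPKM in wildtype libraries. PBS replicate 2 was the highest for both. The vesicle-treated libraries overlapped the wildtype ones for Ifitm3 and lay between the other groups for Tgtp1. Dhx58, a cytosolic sensor of viral RNA (log2 fold change -0.77), and Tnfsf10, the death ligand TRAIL (-0.66), are known as interferon-induced genes as well, as is Ly6a (-0.77), a surface protein of stem and endothelial cells. Ly6a had 19.5, 25.7 and 30.9 FPKM in HM-EVs libraries, against 38.7, 50.3 and 40.6 FPKM in PBS libraries. The others were Ms4a6b (-0.73), a myeloid membrane protein, Mmp12 (-0.87), the macrophage elastase, Cfp (-0.63), the complement factor properdin, S100a8 (-0.91), a neutrophil alarmin, and Parp3 (-0.58), a DNA repair enzyme. S100a8 rested on 6 or 7 reads in each HM-EVs library and between 14 and 23 reads in PBS libraries.

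Several of the 10 higher genes are neuronal. Klf10, an early response transcription factor, had 7.16, 8.14 and 6.38 FPKM in HM-EVs libraries, against 5.26, 4.94 and 5.06 FPKM in PBS libraries and 9.61, 8.08 and 8.28 FPKM in wildtype libraries (log2 fold change 0.46). Kcnh3, a voltage-gated potassium channel of forebrain neurons, had 16.0, 15.5 and 15.7 FPKM in HM-EVs libraries, against 13.1, 10.8 and 12.5 FPKM in PBS libraries (0.37). In these 2 genes the PBS libraries were the lowest of the 9. Lingo1 (0.29), which restrains axon growth and myelination, Rtn4rl2 (0.33), a receptor of the Nogo family, Mchr1 (0.29), the receptor for melanin-concentrating hormone, and Kcnq5 (0.30), a potassium channel, are also neuronal. Hba-a2 (1.54) encodes haemoglobin alpha, Cldn22 (0.37) a claudin and Syna (0.35) a fusogen of the placenta, and Tmem254a (0.50) has a role that is not described here.

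The genes induced by type I interferon had lower values in vesicle-treated hippocampus, although 0 of the 18 tested of 19 listed members were called. The estimate was below 0 for 17 of 18, with a median log2 fold change of -0.85, against -0.02 over all genes. Groups without overlap were seen for 10 of 18, all lower, against 5.21% of all genes. This count describes the list and is no test, since the lists were chosen with earlier results of these data known. Nor are the members independent of each other, as 1 library was the lowest for 16 of 18. The first limit holds for the counts of the other lists too. These 10 were Ifit1, Ifit3, Ifi27, Ifi44, Irf7, Usp18, Bst2, Ifitm3, Trim30a and Rtp4. The summed level of the list was 146, 204 and 186 FPKM in HM-EVs libraries, against 228, 430.4 and 352 FPKM in PBS libraries and 142, 109 and 109.7 FPKM in wildtype libraries. HM-EVs replicate 1 was the lowest of the 6 libraries for 16 of 18 members, and PBS replicates 2 and 3 were the highest for 8 and 9 members. The median lay between -1.04 and -0.58 when any 1 of the 6 libraries was left out, and it was -0.93 without HM-EVs replicate 3.

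A response element that interferon-activated factors bind has the letters GAAANNGAAA at its core. RefSeq promoters (GRCm38.p6) were found for 14 of the 19 listed genes, and these letters stood on either strand in the 250 bases before the start of 8 of them (57.1%), against 936 of 27025 genes with a promoter (3.46%). The 8 were Ifit1, Ifit3, Isg15, Stat2, Oas1a, Bst2, Rsad2 and Trim30a. Matches that overlap by a few letters were each counted. This describes the letters of the reference and is no measure of binding. The letters and the separation of the groups did not go together gene by gene. Isg15, Stat2, Oas1a and Rsad2 had the letters and groups that overlapped. Ifi44, Irf7 and Ifitm3 had groups without overlap and a promoter without the letters. The 4 genes with both the letters and groups without overlap are shown over 100 bases, with matches to GAAANNGAAA or its reverse complement TTTCNNTTTC in capitals.
Ifit1 (chr19:34640740-34640839, GRCm38.p6, plus strand, first match 104 bases before the start): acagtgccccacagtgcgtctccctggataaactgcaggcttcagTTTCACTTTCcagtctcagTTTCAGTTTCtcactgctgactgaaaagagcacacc
Ifit3 (chr19:34583328-34583427, GRCm38.p6, plus strand, first match 156 bases before the start): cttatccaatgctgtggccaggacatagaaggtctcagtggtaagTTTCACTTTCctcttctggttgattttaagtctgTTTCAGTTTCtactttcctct
Bst2 (chr8:71537548-71537647, GRCm38.p6, minus strand, first match 130 bases before the start): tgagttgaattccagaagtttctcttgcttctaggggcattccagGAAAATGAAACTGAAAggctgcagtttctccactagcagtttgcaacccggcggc
Trim30a (chr7:104465194-104465293, GRCm38.p6, minus strand, first match 36 bases before the start): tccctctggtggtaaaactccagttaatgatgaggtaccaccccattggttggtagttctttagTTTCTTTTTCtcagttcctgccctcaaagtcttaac

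Ifit1, whose product holds back translation of viral RNA, had 2.05, 4.44 and 3.20 FPKM in HM-EVs libraries, against 6.00, 10.8 and 7.84 FPKM in PBS libraries and 3.70, 1.57 and 0.731 FPKM in wildtype libraries (log2 fold change -1.24, 95% interval -2.16 to -0.32, adjusted p = 0.87, limma). Ifit3, its partner in the same complex, had 7.63, 16.0 and 15.4 FPKM in HM-EVs libraries, against 16.8, 25.7 and 27.5 FPKM in PBS libraries and 8.13, 6.23 and 4.98 FPKM in wildtype libraries. The 2 groups did not overlap for either gene, although Ifit3 in HM-EVs replicate 2 came within 1 FPKM of PBS replicate 1. Bst2, or tetherin, which holds budding viruses at the cell surface, had 16.2, 18.2 and 20.8 FPKM in HM-EVs libraries, against 22.1, 47.6 and 42.6 FPKM in PBS libraries and 8.08, 6.21 and 7.80 FPKM in wildtype libraries. Trim30a, a restraint on inflammatory signalling, had 1.63, 2.53 and 2.41 FPKM in HM-EVs libraries, against 3.25, 3.55 and 3.47 FPKM in PBS libraries and 0.937, 0.782 and 0.562 FPKM in wildtype libraries. For these 2 genes HM-EVs libraries lay between the other 2 groups.

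Among regulators, Irf7, the factor that amplifies interferon production, had 2.86, 5.15 and 3.87 FPKM in HM-EVs libraries, against 6.15, 10.1 and 10.6 FPKM in PBS libraries and 6.23, 2.61 and 1.71 FPKM in wildtype libraries. Usp18, which removes the ubiquitin-like ISG15 and damps the receptor, had 1.16, 3.41 and 2.84 FPKM in HM-EVs libraries, against 4.15, 7.92 and 5.12 FPKM in PBS libraries. Isg15 itself had 4.0, 10.0 and 6.25 FPKM in HM-EVs libraries, against 9.52, 18.5 and 19.6 FPKM in PBS libraries, so that the groups overlapped by 1 library. For the factors that carry the signal, the estimates were -0.26 for Stat2 and -0.54 for Irf9, and the groups overlapped for both. Rsad2, an antiviral enzyme, was the 1 member above 0, with 1.95, 2.91 and 1.19 FPKM in HM-EVs libraries, against 1.14, 1.29 and 2.56 FPKM in PBS libraries. Without PBS replicate 1, which had the lowest summed level of the PBS libraries, Ifitm3 (-1.42) and Bst2 (-1.27) both reached an adjusted p of 0.079 (limma) and were still not called. Reads may be split uncertainly between close copies such as those of the Ifit and Oas families.

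Other measures differed between the libraries too, not always in the order of the interferon list. PBS replicate 2, with the highest interferon sum, also had the most choroid plexus and meningeal transcripts. HM-EVs replicate 1 had the lowest interferon sum (146 FPKM), yet its choroid plexus sum (6685 FPKM) was above those of PBS replicates 1 (3113 FPKM) and 3 (3295 FPKM). PBS replicate 3 had the lowest meningeal sum of the PBS libraries. Its thalamic and habenular sum (125 FPKM) was the highest of the 6 libraries. The meningeal markers summed to 790, 645 and 931 FPKM in HM-EVs libraries, against 1720, 3338 and 1217 FPKM in PBS libraries. In wildtype libraries they summed to 475, 1134 and 2209 FPKM. The sums of the choroid plexus markers and of the interferon list in each library are given above. With the choroid plexus marker level as a covariate the interferon median was -0.99, and 0 genes were called. The meningeal level was not used as a covariate, and the part of these tissues in the interferon difference was not tested.

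**Figure D2:**
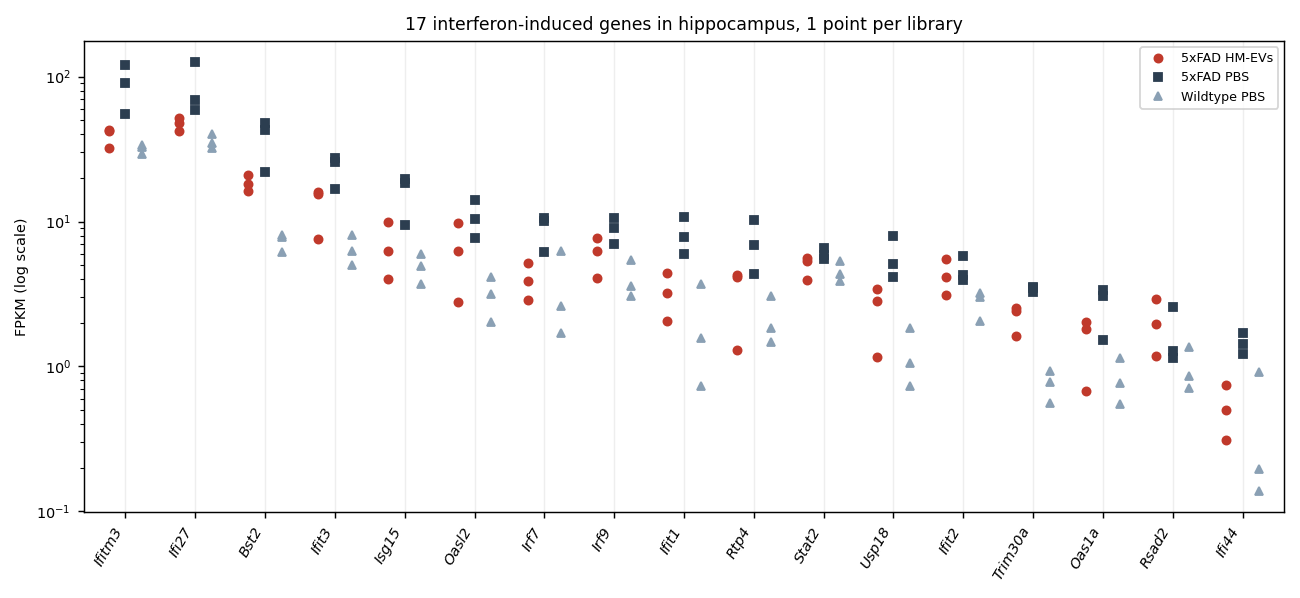
FPKM (log scale) of 17 of the 18 tested interferon-induced genes, 1 point per hippocampus library, ordered by the 5xFAD PBS mean, with 5xFAD HM-EVs as circles, 5xFAD PBS as squares and wildtype PBS as triangles. In 10 genes the circles lie wholly below the squares, while Rsad2, Ifit2 and 5 others overlap.

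Antigen presentation genes of class I had estimates below 0 for 10 of 10 members (median -0.40), with 0 called and 2 of 10 without overlap, both lower, against 5.21% of all genes. Those 2 were Tap2, a subunit of the peptide transporter (-0.33), and H2-Q4, a nonclassical class I chain (-0.58). B2m, the light chain shared by class I molecules, had 363, 416 and 696 FPKM in HM-EVs libraries, against 634, 600.3 and 614 FPKM in PBS libraries and 195, 217 and 192 FPKM in wildtype libraries. The class I heavy chain H2-D1 had 73.8, 88.5 and 117 FPKM in HM-EVs libraries, against 151, 97.0 and 109 FPKM in PBS libraries. In both genes HM-EVs replicates 1 and 2 lay below all PBS libraries and replicate 3 did not. H2-K1 (-0.36) and H2-T23 (-0.75) had the same sign. The class I median was -0.59 without HM-EVs replicate 3 and -0.26 without HM-EVs replicate 1, the ends of its range when any 1 library was left out. The class II list had estimates below 0 for 4 of 5 tested members (median -0.63) and 0 without overlap. Its median was -1.04 without PBS replicate 2 and -0.24 without HM-EVs replicate 1. Its invariant chain Cd74 varied widely within a group, with 23.1, 49.0 and 54.7 FPKM in HM-EVs libraries, against 82.6, 29.8 and 93.3 FPKM in PBS libraries and 2.17, 5.69 and 8.54 FPKM in wildtype libraries. H2 genes share near-identical sequence, so values of single H2 genes are uncertain.

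Genes of plaque-associated microglia did not separate the groups. Of 32 members tested, 0 were called and 0 were without overlap, and 25 of 32 estimates were below 0 (median -0.11). HM-EVs replicate 3 was the highest of the 6 libraries for 19 of 32 members. Cst7, the inhibitor of cathepsins that is nearly confined to these cells, had 72.4, 68.2 and 184 FPKM in HM-EVs libraries, against 112, 92.3 and 111 FPKM in PBS libraries and 0.218, 0.424 and 0.201 FPKM in wildtype libraries. Trem2, the lipid receptor that the state depends on, had 63.5, 61.4 and 113 FPKM in HM-EVs libraries, against 88.6, 77.9 and 76.7 FPKM in PBS libraries and 9.20, 11.7 and 11.3 FPKM in wildtype libraries. HM-EVs replicates 1 and 2 lay below, and replicate 3 above, all PBS libraries for both genes. Tyrobp, the adaptor of Trem2, had 130.3, 128 and 271 FPKM in HM-EVs libraries, against 179, 205 and 168 FPKM in PBS libraries. Apoe, the lipid carrier, had 1126, 1003 and 1377 FPKM in HM-EVs libraries, against 1327, 1559 and 1347 FPKM in PBS libraries (-0.28, 95% interval -0.68 to 0.12). Spp1, or osteopontin, had the lowest estimate of the list (-1.07), with 11.4, 14.5 and 40.5 FPKM in HM-EVs libraries, against 46.1, 33.4 and 42.2 FPKM in PBS libraries.

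Leaving out HM-EVs replicate 3 gave a median of -0.36 for the plaque-associated list, with 17 of 32 members without overlap and lower. With 2 libraries against 3, however, 21.3% of all genes were without overlap and lower and 16.3% higher, so such counts have a higher background. Leaving out HM-EVs replicate 1 or 2 instead gave a median of 0.01 or 0.03, so the sign turned. The list of homeostatic microglia showed the same pattern. Its median was -0.03, which turned to 0.01 after quantile normalization and to 0.09 without HM-EVs replicate 2. HM-EVs replicate 3 was highest for 12 of 15 members, and the median was -0.21 without that library. The receptor Csf1r, on which microglia depend, had 53.5, 52.1 and 71.1 FPKM in HM-EVs libraries, against 65.8, 55.9 and 57.6 FPKM in PBS libraries. Complement C1qa had 171, 168 and 313 FPKM in HM-EVs libraries, against 259, 224 and 244 FPKM in PBS libraries. These microglial genes rank HM-EVs replicate 3 highest, and it is also the library with the least choroid plexus and the fewest reads. The part of these measures in the pattern was not tested.

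Of 12 complement genes tested, 0 were called and 8 were below 0 (median -0.15). The 2 without overlap were Serping1, the C1 inhibitor, and C2, a protease of the classical pathway, both lower, 2 of 12 against 5.21% of all genes. The median was -0.45 without HM-EVs replicate 3, with 8 of 12 without overlap and lower against 21.3% of all genes, and -0.03 without HM-EVs replicate 2. C4b, a component that astrocytes also express in gliosis, had 24.4, 27.1 and 25.9 FPKM in HM-EVs libraries, against 33.6, 20.4 and 23.3 FPKM in PBS libraries. Reactive astrocyte genes had a median of -0.27, with 1 of 13 tested without overlap and lower, against 5.21% of all genes. Their median was -0.08 without HM-EVs replicate 1 and -0.33 without HM-EVs replicate 3. Their main marker Gfap, an intermediate filament, had 317, 334 and 445 FPKM in HM-EVs libraries, against 480.1, 404 and 354 FPKM in PBS libraries and 115, 135 and 139 FPKM in wildtype libraries. Cytokine and inflammasome genes had a median of -0.10 over 15 tested of 19, with 0 without overlap, and between -0.16 and -0.01 when any 1 library was left out.

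Cd36 was low throughout and lower in vesicle-treated hippocampus. It had 0.612, 1.03 and 0.404 FPKM in HM-EVs libraries, against 1.41, 1.33 and 2.32 FPKM in PBS libraries and 0.462, 0.519 and 0.358 FPKM in wildtype libraries. The 2 5xFAD groups did not overlap, and HM-EVs replicates 1 and 2 lay above, and replicate 3 within, the range of the wildtype libraries. These levels rest on 76, 139 and 39 reads in HM-EVs libraries, against 172, 175 and 285 reads in PBS libraries. The mean was 0.683 ± 0.320 FPKM with vesicles and 1.69 ± 0.550 FPKM with PBS (SD, n = 3 each), a log2 fold change of -0.89 (SE 0.22, 95% interval -1.39 to -0.39). The adjusted p was 0.87 (limma), and the estimate lay between -1.10 and -0.70 when any 1 library was left out. These reads count the mouse gene, so the protein in the vesicles is not measured here.

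The list around Cd36, of fatty acid uptake, storage and oxidation, had 28 of 30 members tested, 0 called, 19 below 0 and a median of -0.18. Groups without overlap were seen for 8 of 28, all lower, against 5.21% of all genes, and the median was -0.10 without PBS replicate 2. Cpt2, which completes the entry of fatty acids into mitochondria, had 3.84, 3.22 and 2.51 FPKM in HM-EVs libraries, against 5.28, 6.52 and 4.35 FPKM in PBS libraries and 2.35, 3.07 and 2.87 FPKM in wildtype libraries (-0.67, 95% interval -1.06 to -0.28, adjusted p = 0.87, limma). Plin2, a coat protein of lipid droplets (-0.31), was lower without overlap too. So was Fabp7, the fatty acid binding protein of astrocytes and neural progenitors, with 39.5, 30.3 and 40.4 FPKM in HM-EVs libraries, against 40.6, 52.3 and 49.3 FPKM in PBS libraries. Acsl3, which activates long-chain fatty acids, overlapped and had 48.3, 52.6 and 62.5 FPKM in HM-EVs libraries, against 54.7, 49.3 and 54.2 FPKM in PBS libraries. Cholesterol synthesis genes had a median of 0.04 (23 tested), which turned to -0.01 without HM-EVs replicate 3 and with the choroid plexus covariate.

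Among genes that share sequence with the transgenes, Thy1 separated the 5xFAD libraries from wildtype ones and App did not, and no amyloid-processing gene was called. Neither gene can check the vesicle label, since both 5xFAD groups carry the transgenes. Reads of the transgenes may be counted on mouse genes such as App and Thy1. Thy1 had 1218, 1287 and 1415 FPKM in HM-EVs libraries, against 1330.2, 1293 and 1075 FPKM in PBS libraries and 432, 459 and 506 FPKM in wildtype libraries. Every 5xFAD library was therefore above every wildtype one, and the 2 5xFAD groups overlapped (log2 fold change 0.09, 95% interval -0.20 to 0.37). App, the amyloid precursor, had 98.5, 102 and 92.3 FPKM in HM-EVs libraries, against 92.1, 87.8 and 93.3 FPKM in PBS libraries and 100.1, 102 and 102 FPKM in wildtype libraries. Its log2 fold change was 0.10 (95% interval -0.06 to 0.25), and -0.11 when the trend over gene length was taken out. The list of App and its processing had a median of 0.02 over 14 genes, with 0 called. The beta-secretase Bace1 had 18.6, 19.6 and 15.1 FPKM in HM-EVs libraries, against 17.3, 13.8 and 16.2 FPKM in PBS libraries. The amyloid-degrading list had a median of -0.07 over 7 tested genes, and between -0.13 and -0.01 when any 1 library was left out.

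Leaving out PBS replicate 3 gave the only gene called in any hippocampus fit, Saa3, an acute-phase serum amyloid A protein. It had 6.64, 5.00 and 5.41 FPKM in HM-EVs libraries, against 0.899, 0.681 and 7.27 FPKM in PBS libraries and 12, 13.7 and 12.7 FPKM in wildtype libraries. PBS replicate 3 was the highest of the 6 5xFAD libraries and the other 2 PBS libraries were the lowest. Without PBS replicate 3 the log2 fold change was 2.26 (adjusted p = 0.0016, limma), and with it 1.39 (adjusted p = 0.87). PBS replicate 3 also had the highest level for 10 of 11 thalamic and habenular markers among the 6 libraries, a list with a median of -0.38, which was -0.08 without that library.

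**Figure D3:**
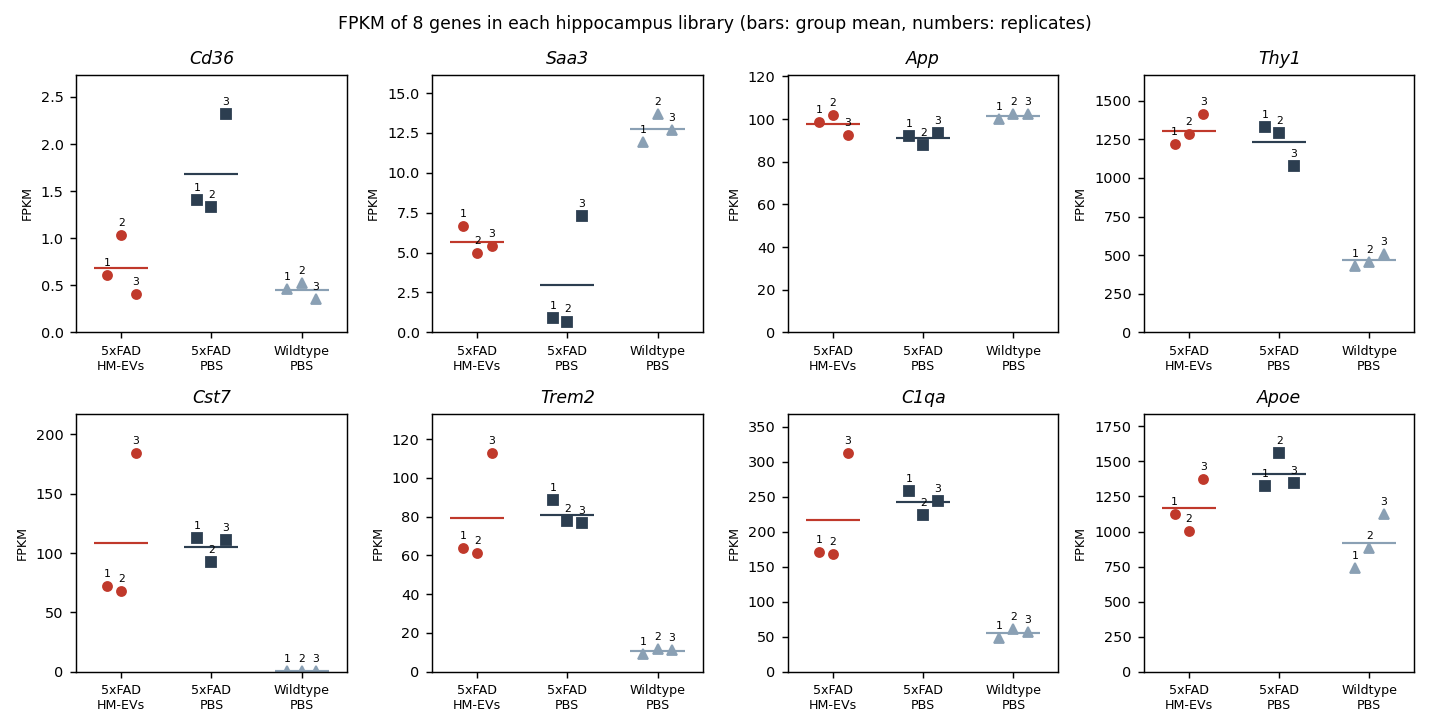
FPKM of 8 genes in each hippocampus library, with 5xFAD HM-EVs on the left, 5xFAD PBS in the middle and wildtype PBS on the right; bars are group means and numbers are replicates. Cd36 is lower in the 3 HM-EVs libraries, Saa3 divides PBS replicate 3 from the other 2 PBS libraries, and HM-EVs replicate 3 stands highest for Cst7, Trem2 and C1qa.

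Transcripts of the meninges had lower values in vesicle-treated hippocampus, with none called. Meningeal fibroblast genes were below 0 for 11 of 11 members (median -0.93), with 0 called and 8 of 11 without overlap and lower, against 5.21% of all genes. Ptgds, the prostaglandin D synthase of meninges and choroid plexus, had 673, 561 and 872 FPKM in HM-EVs libraries, against 1578, 3122 and 1115 FPKM in PBS libraries and 429, 1075 and 2109 FPKM in wildtype libraries (-1.35). Crabp2, which carries retinoic acid in meningeal cells, had 2.32, 2.08 and 3.91 FPKM in HM-EVs libraries, against 7.43, 19.3 and 7.49 FPKM in PBS libraries and 1.23, 4.83 and 10.2 FPKM in wildtype libraries (-1.76). PBS replicate 2 was the highest of the 6 libraries for 11 of 11 members, and the wildtype libraries spread as widely as the 5xFAD ones. The growth factor Igf2 had an estimate of -1.01 and the collagen Col1a1 of -0.67. Without HM-EVs replicate 3 the median was -0.84, and it stayed between -1.15 and -0.64 over all single-library omissions.

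Macrophages that live at the brain's borders followed the same direction, with 7 of 7 tested markers of 9 listed below 0 (median -0.66) and 6 of 7 without overlap and lower, against 5.21% of all genes. That median lay between -0.81 and -0.48 when any 1 library was left out, and it was -1.15 with limma-voom. The levels are low, with the 9 listed markers summing to 4.40, 4.43 and 7.09 FPKM in HM-EVs libraries, against 10.6, 14.0 and 9.42 FPKM in PBS libraries. A gene was tested if 3 of the 9 libraries reached 0.5 FPKM, so the PBS libraries alone could bring a marker into the test. The mannose receptor Mrc1 had 0.641, 0.693 and 1.02 FPKM in HM-EVs libraries, against 1.72, 1.88 and 1.36 FPKM in PBS libraries and 0.450, 1.16 and 0.656 FPKM in wildtype libraries (-0.75, 95% interval -1.22 to -0.27, adjusted p = 0.87, limma). Pf4, platelet factor 4, had an estimate of -1.14 and Cbr2, a carbonyl reductase, of -1.02. Complement Serping1, which stromal cells express, had 5.86, 5.02 and 6.90 FPKM in HM-EVs libraries, against 11.9, 16.0 and 8.78 FPKM in PBS libraries and 2.26, 6.70 and 9.55 FPKM in wildtype libraries (-0.96). Pericyte and smooth muscle genes had a median of -0.54 over 11 genes, with 1 of 11 without overlap and lower, against 5.21% of all genes. That median was -0.24 without PBS replicate 1 and -0.82 without PBS replicate 3. Ependymal genes had a median of -0.31, which turned to 0.12 without HM-EVs replicate 3 and to a positive value with the choroid plexus covariate or without PBS replicate 2. Red cell genes went the other way, with 4 of 4 above 0 (median 1.67). Haemoglobin Hbb-bs had 18.1, 6.28 and 38.9 FPKM in HM-EVs libraries, against 1.92, 6.53 and 4.37 FPKM in PBS libraries and 1.39, 21.8 and 3.91 FPKM in wildtype libraries. HM-EVs replicate 3 was the highest of the 6 for 4 of 4.

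Synaptic genes had small positive medians. Postsynaptic genes were above 0 for 24 of 24 members, with a median of 0.19, 0 called and 2 without overlap, both higher, against 2.3% of all genes. PBS replicate 2 was the lowest of the 6 libraries for 19 of the 24, and without it the median was 0.08, against 0.27 without HM-EVs replicate 3 (19 of 24 without overlap and higher, against 16.3% of all genes). Gria3, a glutamate receptor subunit, had 27.3, 29.1 and 25.6 FPKM in HM-EVs libraries, against 25.0, 18.8 and 22.5 FPKM in PBS libraries and 31.4, 27.3 and 21.2 FPKM in wildtype libraries (0.31, 95% interval -0.02 to 0.64). Camk2a, the kinase of synaptic plasticity, had 644, 631 and 618 FPKM in HM-EVs libraries, against 654, 539 and 547 FPKM in PBS libraries. Glutamatergic and presynaptic genes both had a median of 0.12. The vesicular glutamate transporter Slc17a7 had 481, 498 and 497 FPKM in HM-EVs libraries, against 477, 428 and 432 FPKM in PBS libraries, without overlap (0.15). Among immediate early genes of neuronal activity the median was 0.07 over 24, and between 0.02 and 0.12 when any 1 library was left out. Arc had 16.8, 19.8 and 24.4 FPKM in HM-EVs libraries, against 15.9, 17.2 and 21.3 FPKM in PBS libraries and 43.5, 61.5 and 51.5 FPKM in wildtype libraries. Both 5xFAD groups thus lay below wildtype for Arc and overlapped each other. Dentate gyrus (0.10) and CA1 markers (0.10) had small medians, the dentate one at 0.02 without PBS replicate 2 and the CA1 one turning sign without HM-EVs replicate 3 and with the choroid plexus covariate.

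Ribosomal protein genes were below 0 for 32 of 32 members (median -0.23) and oxidative phosphorylation genes for 35 of 35 (median -0.20), with 0 called and 0 without overlap in either list. PBS replicate 2 was the highest of the 6 libraries for 32 of 32 and 35 of 35 members, and without it the medians were -0.09 for ribosomal and -0.06 for oxidative phosphorylation genes. Without HM-EVs replicate 3 they were -0.36 and -0.30, with 31 of 32 and 21 of 35 members without overlap and lower, against 21.3% of all genes. Rplp1, of the ribosomal stalk, had 1068, 999 and 1323 FPKM in HM-EVs libraries, against 1051, 1686 and 1261 FPKM in PBS libraries. A trend over gene length ran through the libraries as well. The slope of log2 level per doubling of gene length, relative to the mean of the hippocampus libraries, was 0.0566, 0.0888 and -0.0592 in HM-EVs libraries, against 0.0358, -0.166 and -0.0255 in PBS libraries. With that trend removed the medians were -0.08 for ribosomal, -0.05 for oxidative phosphorylation and 0.12 for postsynaptic genes, while the interferon median was -0.79. The antioxidant list, with a median of -0.21, was at -0.11, as it was without PBS replicate 2. Its member Nqo1, a quinone reductase, had 3.84, 3.01 and 3.03 FPKM in HM-EVs libraries, against 4.27, 8.04 and 5.35 FPKM in PBS libraries (-0.72).

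**Figure D4:**
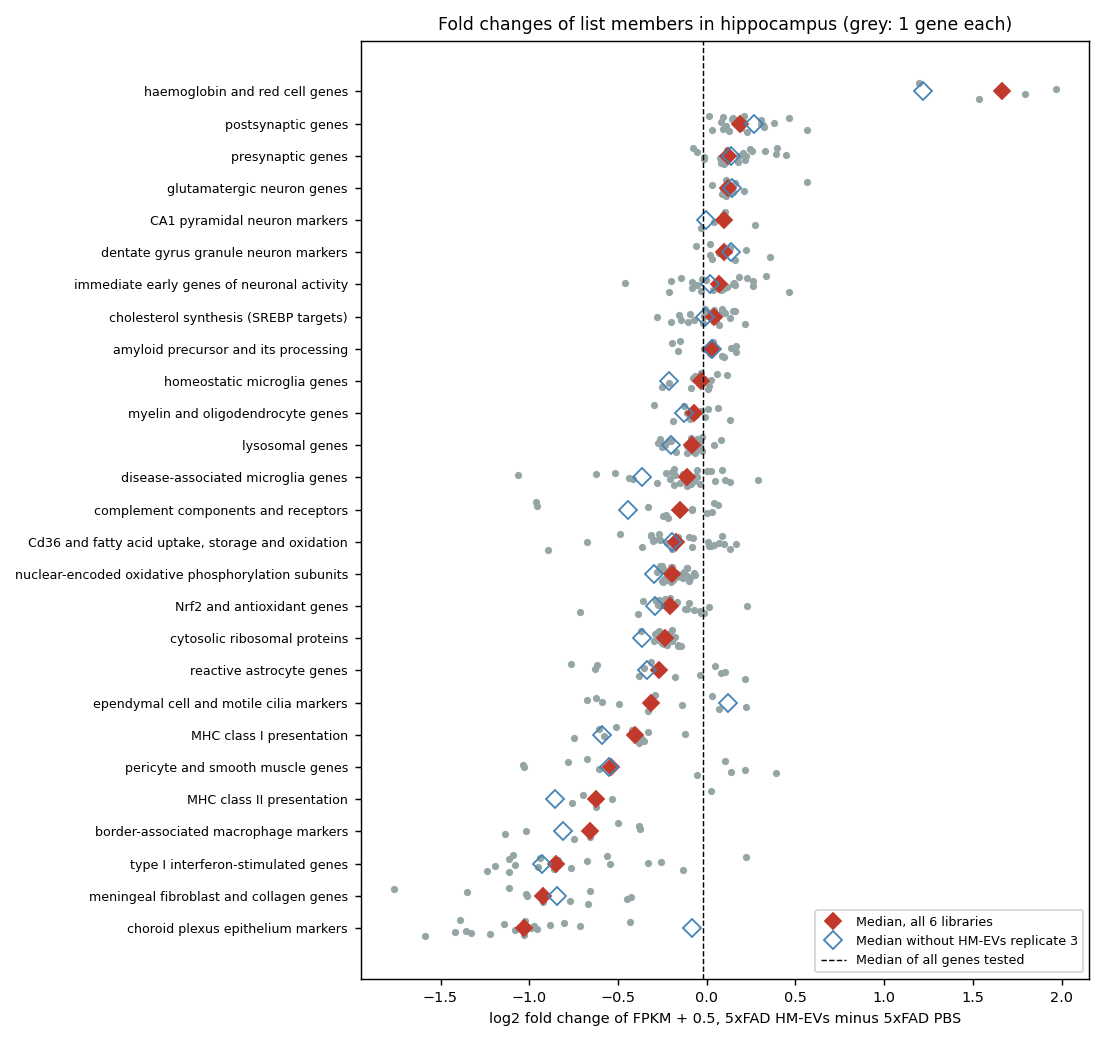
log2 fold changes (5xFAD HM-EVs minus 5xFAD PBS, FPKM + 0.5) of the tested members of 27 gene lists in hippocampus, with 1 grey point per gene, the list's median as a red diamond and the median without HM-EVs replicate 3 as an open diamond. The choroid plexus median is -1.03 with all libraries and -0.08 without that library, while the interferon median is -0.85 and -0.93.

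The same comparison in prefrontal cortex used other libraries, in which choroid plexus was scarce except in 1. Ttr had 11.6, 3.08 and 836 FPKM in HM-EVs cortex, against 5.76, 3.18 and 4.47 FPKM in PBS cortex. Striatal markers summed to 126, 696 and 231 FPKM in HM-EVs cortex, against 408, 424 and 581 FPKM in PBS cortex. Thalamic and habenular markers summed to 85.0, 91.7 and 248 FPKM in HM-EVs cortex, against 70.0, 78.2 and 72.1 FPKM in PBS cortex. The part of these tissues in the cortex values was not tested. There too 0 of 13055 genes (0%) were called by limma, with 616 (4.72%) at an unadjusted p under 0.05. Groups without overlap were seen for 514 genes lower (3.94%) and 872 higher (6.68%). The interferon list had a median of -0.51 in prefrontal cortex, with 13 of 18 members without overlap and lower and 1 higher, Rsad2. Of the 10 members without overlap in hippocampus and the 13 in prefrontal cortex, 8 were the same genes, 80% of the first list and 61.5% of the second. With 13 of all 18 members in the second list, a large shared count would arise from the sizes of the lists alone. The share of all genes lower without overlap in both tissues was not computed. Ifit1 had 2.75, 2.84 and 2.81 FPKM in HM-EVs cortex, against 4.36, 5.13 and 6.70 FPKM in PBS cortex. Irf7 had 2.23, 3.32 and 2.59 FPKM in HM-EVs cortex, against 4.91, 6.51 and 5.58 FPKM in PBS cortex. Both genes are lower with vesicles in each tissue without overlap. Whether 1 mouse gave both tissues is not stated in the labels, so the tissues may not be independent.

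Some other lists had medians of other signs or sizes in prefrontal cortex, and some did not. The meningeal median was 0.23 in prefrontal cortex, the border macrophage median -0.07 and the class I median -0.07. Red cell genes had a median of 2.09 there, against 1.67 in hippocampus. Of these, 3 of 5 were without overlap and higher in prefrontal cortex, against 6.68% of all genes. The plaque-associated and complement medians also kept their sign, at -0.14 and -0.18 in prefrontal cortex. Glutamatergic, presynaptic and postsynaptic medians did not, at -0.21, -0.06 and -0.02 in prefrontal cortex, against 0.12, 0.12 and 0.19 in hippocampus. Nor did those of the pericyte and smooth muscle list (0.35 against -0.54) and the fatty acid list (0.04 against -0.18). Cd36 had 1.47, 0.540 and 0.549 FPKM in HM-EVs cortex, against 0.169, 1.04 and 0.991 FPKM in PBS cortex, so that the groups overlapped. The vesicle effect in hippocampus minus that in prefrontal cortex was tested directly in a fit of all 18 libraries, and 0 of 13574 genes (0%) were called, with 680 (5.01%) at an unadjusted p under 0.05 (limma). For the interferon list the smallest adjusted p of that difference was 0.99. A difference between the tissues was therefore not detectable with these samples.

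**Figure D5:**
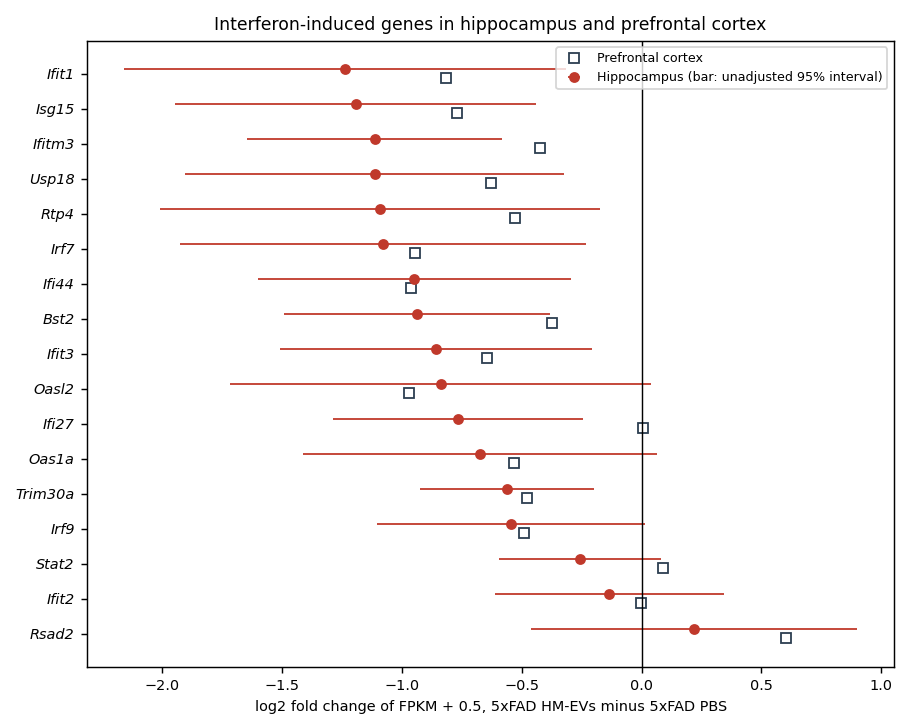
log2 fold changes (5xFAD HM-EVs minus 5xFAD PBS, FPKM + 0.5) of 17 of the 18 interferon-induced genes in hippocampus (filled, with unadjusted 95% intervals) and prefrontal cortex (open). Over all 18 the median is -0.85 in hippocampus and -0.51 in prefrontal cortex, and Rsad2 is above 0 in both.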

How the data were processed

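The deposited table holds FPKM for 18683 genes in 18 libraries, computed by the authors. Per the submitters' processing notes, which give no versions, fastp, HISAT2 and HTSeq were used with the build GRCm39. No source used here gives the annotation, strand or gene lengths. All 18 columns matched a sample by name.

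Whole reads behind the FPKM were recovered for 100% of genes (relative tolerance 1e-06). Replicates were not repeated libraries (chi-square per gene between 18.2 and 73.5 in the 2 groups). Tests used log2(FPKM + 0.5), which understates changes of low genes. The 9 hippocampus libraries were fitted together in limma 3.58.1 (R 4.3.3, eBayes with trend), for genes reaching 0.5 FPKM in 3 or more of the 9 libraries. Tests were two-sided, adjusted by Benjamini-Hochberg, and called at an adjusted p under 0.05. limma-voom used the recovered reads with TMM factors computed from their definition. Intervals are unadjusted 95% limma intervals.

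The 46 gene lists, members and tests were chosen with earlier results of these data known. The rule for named genes took Cd36, App, Thy1 and Ttr, the 10 largest changes per direction among called genes without overlap and at least 1 FPKM (places filled by smallest unadjusted p), and up to 4 members of each list described, the called ones or else those of highest level. Members outside that rule were named after their values were seen. Saa3, Cst7, Trem2, Csf1r and the members listed because their groups did not overlap are such genes. All choroid plexus members were summarised, with Ttr, Folr1 and Kcne2 given singly. Alternatives were other pseudocounts, filters, normalizations, eBayes settings, voom, a choroid plexus covariate, a replicate block, each library left out, and, chosen after seeing the data, removal of the length trend and leaving out HM-EVs replicate 3 together with the covariate. The scripts were tested on simulated data. Single values of some list members are not reported here, although they count in the lists.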

Additional observations from a re-analysis of the deposited data

Results flagged for a closer look

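Fabp7 had estimates of opposite sign in the tissues, with every HM-EVs library below every PBS library in hippocampus and above them in prefrontal cortex. In hippocampus the groups nearly touched, with HM-EVs replicate 3 only just below PBS replicate 1. Fabp7 had 50.3, 78.4 and 69.9 FPKM in HM-EVs cortex, against 47.2, 47.9 and 47.6 FPKM in PBS cortex. The vesicle effect in hippocampus minus that in prefrontal cortex was -0.82 on the log2 scale, with an adjusted p of 0.995 (limma), so the difference was not called. Groups of 3 libraries are too small for a search for single outlying libraries.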

How the results depend on the processing

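The count of called genes was 0 as reported and in every alternative for hippocampus but 1: leaving out 1 library gave 0 to 1 genes, the 1 being Saa3 without PBS replicate 3 (2.26). Genes at an unadjusted p under 0.05 were 519, with 227 to 1656 when 1 library was left out (229 without HM-EVs replicate 2, 1656 without HM-EVs replicate 3, 986 without PBS replicate 1, 227 without PBS replicate 2), 807 with no filter and 2405 with the choroid plexus covariate and without HM-EVs replicate 3. The difference between tissues had 0 called throughout and 680 unadjusted, with 325 to 1164 when 1 library was left out. Members called were 0 in all 46 lists under all settings. The difference in choroid plexus marker level per library, taken as mean Ttr, was -1999 FPKM, with -3445 to 24.1 FPKM when 1 library was left out, and it was above 0 only without PBS replicate 2. Signs turned for App with the length trend removed (-0.11), for Thy1 without PBS replicate 3 (-0.0081, with -0.0081 to 0.15 when 1 library was left out) and for Ttr with the choroid plexus covariate (0.021, and 0.028 also without HM-EVs replicate 3). The cause was not tested. Deviations of same-numbered libraries from their group means correlated at 0.0571, -0.409 and 0.181, and 2 of the 3 HM-EVs libraries correlated best with another number. With 3 libraries per group these values cannot settle whether replicate numbers pair the 2 groups. With the replicate block 0 genes were called and 478 had an unadjusted p under 0.05 (0 and 815 for the difference between tissues). List medians changed sign in 0 to 8 of 46 lists per setting, among them plaque-associated and homeostatic microglia without HM-EVs replicate 1 or 2. Depth limits genes with few reads, such as Cd36 and S100a8, and counting error is only part of their spread.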
